A study of Mus musculus with 123 samples.

Results

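Of the 130727 regions of open chromatin listed for mouse cerebral cortex, 1639 gained accessibility after both 3 h and 6 h of sleep deprivation, and these 1639 peaks are described here. They were chosen by their own values: on the log2(value + 0.5) scale of the normalised read count, the mean of the 3 T27 mice lay at least 0.7 above that of the 3 ZT3 controls, the mean of the 3 T30 mice lay at least 0.7 above that of the 5 ZT6 controls, and the mean over all libraries was at least 1.5, a level that 118796 peaks reached. The mirror rule for loss at both times held for 87 peaks. A further 2600 peaks met the threshold at T27 only and 2709 at T30 only.

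All animals were male C57BL/6J mice of 11 to 12 weeks kept in 12 h of light and 12 h of dark, with no genetic change. Deprivation lasted 6 h, began when the lights came on and was done by gentle handling, and mice then recovered undisturbed. In group names T counts hours from the start of the baseline day, so T27 and T30 mice were killed 3 h and 6 h into deprivation, T36, T42, T48, T54, T60, T66, T72 and T78 mice during the following days, and T192 and T198 mice a week later. Controls slept freely and were killed at zeitgeber time ZT0 (light onset), ZT3, ZT6, ZT12 (dark onset) or ZT18. ATAC-seq, in which a transposase cuts accessible DNA in isolated nuclei, gave 3 mice per deprived group apart from 1 at T66, and 8, 3, 5, 5 and 4 controls at ZT0, ZT3, ZT6, ZT12 and ZT18. Each mouse also gave an RNA-seq library.

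Most accessible regions away from gene starts are enhancers, stretches where transcription factors displace nucleosomes. In neurons, activity induces the Fos and Jun proteins, which pair to form AP-1, a factor that binds enhancers and takes part in opening them. Sleep loss is known to induce immediate early genes in the cortex. Mice sleep mostly in the light and are awake mostly in the dark, so ZT0 follows the active phase and ZT3 to ZT12 cover the rest phase.

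Libraries held 2.21 to 11.9 M reads in peaks, and the median gained peak held between 7 and 48 reads depending on the library, so single peaks rest on few reads. Signal within 1 kb of a gene start or end made up 31.9 to 32.5% of a library at T27 and 31.9 to 33.3% at T30, against 34.1 to 35.9% at ZT3 and 33.5 to 35.3% at ZT6, and the part of this shift in the gains was not tested. Among marker genes in the RNA of the same mice, the 3 measured choroid plexus markers of 6 listed fell at T27 (limma, adjusted p below 0.05), with a summed level of 137 to 150 in T27 mice and 164 to 378 in ZT3 mice. At T30 1 of them fell, with sums of 147 to 148 in T30 mice and 157 to 176 in ZT6 mice, which did not overlap. The 3 markers were Enpp2 (7.06 to 7.55 on the log2 scale over all RNA libraries), Kl (0.989 to 2.47) and Ttr (0.415 to 7.54). Except where Ttr was high, these sums thus rest mostly on Enpp2. Enpp2 varied little while Ttr varied widely, so the sums cannot be read as choroid plexus content. Of the oligodendrocyte markers 2 fell at T30, with overlapping sums of 1653 to 2236 in T30 mice and 1858 to 2429 in ZT6 mice. Of the microglial markers 1 fell at T27, and 2 fell and 1 rose at T30, with overlapping sums at both times. Of 6 endothelial and mural markers 2 fell at T27 and 2 at T30, and their summed level was 188 to 201 in T27 mice and 207 to 230 in ZT3 mice, and 192 to 200 in T30 mice and 206 to 233 in ZT6 mice. Of the meningeal markers 2 fell at T27, with sums of 35.2 to 41.4 in T27 mice and 42.7 to 61.5 in ZT3 mice. Markers of excitatory neurons summed to 2533 to 2683 at T27 and 2511 to 2644 at ZT3, on the linear scale of the same table. Of these 6 markers 1 rose and 1 fell at T27, and 1 rose at T30. Among inhibitory neuron and oligodendrocyte precursor markers, 1 of each set rose at T30. The part of these in the gains was not tested. In this bulk tissue, more cells with an open region and a more open region per cell cannot be told apart.

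Of the 1639 gained peaks, 19 overlapped a window of the RefSeq promoter table (300 bases across a gene start, build GRCm38.p6). These windows are shown because they hold the sequence that can be read for the gained peaks here. The 5 named protein-coding genes among them, the 1 window whose peak was also called at T36 and the 1 with most AP-1 matches are printed, chosen after their values were seen. Capitals mark TGANTCA, a pattern that takes in the core AP-1 site, with N any base. As a pattern it reads the same on both strands. N was T in the Tecrl match and C or G in the other matches printed.
Dhrs9: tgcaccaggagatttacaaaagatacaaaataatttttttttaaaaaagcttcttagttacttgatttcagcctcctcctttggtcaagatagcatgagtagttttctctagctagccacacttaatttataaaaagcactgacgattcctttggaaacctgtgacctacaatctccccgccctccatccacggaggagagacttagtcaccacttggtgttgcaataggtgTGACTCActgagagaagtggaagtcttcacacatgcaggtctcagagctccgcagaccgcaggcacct
Vtcn1: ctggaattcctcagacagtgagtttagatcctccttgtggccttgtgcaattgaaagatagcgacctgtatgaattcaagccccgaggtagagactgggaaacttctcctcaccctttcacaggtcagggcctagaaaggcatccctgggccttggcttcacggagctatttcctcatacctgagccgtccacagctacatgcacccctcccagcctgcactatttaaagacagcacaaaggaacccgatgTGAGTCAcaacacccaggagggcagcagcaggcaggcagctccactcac
Tecrl: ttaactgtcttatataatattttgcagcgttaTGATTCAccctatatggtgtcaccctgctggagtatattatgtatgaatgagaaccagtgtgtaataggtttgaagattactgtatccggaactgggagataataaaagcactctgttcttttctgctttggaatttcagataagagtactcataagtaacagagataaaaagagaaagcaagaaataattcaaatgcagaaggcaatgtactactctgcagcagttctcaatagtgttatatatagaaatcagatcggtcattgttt
Gm38630: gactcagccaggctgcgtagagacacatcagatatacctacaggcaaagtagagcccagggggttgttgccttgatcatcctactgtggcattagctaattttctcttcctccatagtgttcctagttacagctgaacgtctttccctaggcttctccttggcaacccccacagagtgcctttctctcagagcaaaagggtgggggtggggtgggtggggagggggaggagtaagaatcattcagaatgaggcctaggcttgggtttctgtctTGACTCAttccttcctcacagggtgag
Gm30663: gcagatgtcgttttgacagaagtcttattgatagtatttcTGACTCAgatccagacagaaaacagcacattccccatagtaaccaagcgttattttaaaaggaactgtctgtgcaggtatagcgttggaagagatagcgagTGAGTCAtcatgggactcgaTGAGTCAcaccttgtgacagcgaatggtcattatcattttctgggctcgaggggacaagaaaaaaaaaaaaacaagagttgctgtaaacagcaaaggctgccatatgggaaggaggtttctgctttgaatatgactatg
Tnip3: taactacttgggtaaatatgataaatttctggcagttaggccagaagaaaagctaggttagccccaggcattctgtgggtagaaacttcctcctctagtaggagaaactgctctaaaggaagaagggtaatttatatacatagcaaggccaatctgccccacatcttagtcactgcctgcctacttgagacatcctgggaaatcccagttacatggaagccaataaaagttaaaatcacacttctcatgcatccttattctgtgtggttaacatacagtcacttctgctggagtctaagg
Pate1: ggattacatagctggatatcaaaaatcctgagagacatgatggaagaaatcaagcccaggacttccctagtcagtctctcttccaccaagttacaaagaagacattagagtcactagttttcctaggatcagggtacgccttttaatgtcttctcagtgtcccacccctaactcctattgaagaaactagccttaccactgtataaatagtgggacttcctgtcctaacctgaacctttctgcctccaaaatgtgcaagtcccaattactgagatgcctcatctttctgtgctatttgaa
The windows are chr2:69380212-69380511 (plus strand) for Dhrs9, a retinol dehydrogenase, chr3:100825209-100825508 (plus) for Vtcn1, a B7-family immune checkpoint protein, and chr5:83355146-83355445 (minus) for Tecrl. Tnip3, a relative of A20-binding NF-kappaB inhibitors, has chr6:65590148-65590447 (plus), and Pate1, a prostate and testis protein, has chr9:35687322-35687621 (minus). The non-coding genes Gm38630 and Gm30663 have chr2:158909022-158909321 and chr15:7037617-7037916, both plus.

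An AP-1 match lay inside the peak in 11 of the 19 gained peaks that overlapped a promoter window, or 57.9% (95% Wilson interval 36.3 to 76.9%, counting error only). Among peaks at the same level cutoff that overlapped a window and met neither threshold, 635 of 12130 (5.23%) held one. Peaks gained at a single time lay between, with 7 of 34 (20.6%) at T27 only and 5 of 29 (17.2%) at T30 only. The 19 gained peaks had mean log2 levels of 1.58 to 3.76. Of the peaks that met neither threshold and had a level under 3.8, 311 of 4924 (6.32%) held a match. The sets were not matched by kind of gene start. Of the 32851 windows in the table, 7.81% held the AP-1 letters. The 14 matches in gained peaks lay a median of 68.5 bases from the peak centre, and 11 of them lay within 100 bases of it. Some peaks held several matches, and only the part of a peak inside a window could be read. No distance is given for other peaks, so central placement was not tested. The restriction to 19 promoter peaks leaves the other gained peaks unread.

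The other motifs searched were rare in the 19 peaks. No match inside the peak was found for the cyclic AMP response element TGACGTCA, which does not contain the AP-1 letters, the EGR site GCGNGGGCG, the NR4A site AAAGGTCA, the E-box CACGTG, the D-box TTATGTAA or TTACGTAA, or the serum response element by its consensus. With 19 peaks, a count of 0 has a 95% Wilson upper bound of 16.8%. Inside the peaks that met neither threshold, the shares were 3.19% for the cyclic AMP element, 11.0% for EGR and 0.866% for NR4A. They were 10.5% for the E-box, 0.841% for the D-box and 1.24% for the serum response element. The heat shock element GAANNTTC and the steroid receptor site ACANNNTGT were each in 2 peaks (10.5%), against 5.98% and 4.41% of the peaks that met neither threshold. A MEF2 site by its consensus was in 1 peak (5.26%), against 1.65%. Over all 32851 windows the shares were 1.79% for the cyclic AMP element, 5.55% for EGR, 1.51% for NR4A, 7.15% for the E-box, 1.06% for the D-box, 1.63% for the serum response element, 7.86% for the heat shock element, 6.85% for the steroid receptor site and 3.19% for MEF2, on either strand. The 89 gained peaks on chromosome 18 were not analysed here for sequence.

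**Figure D1:**
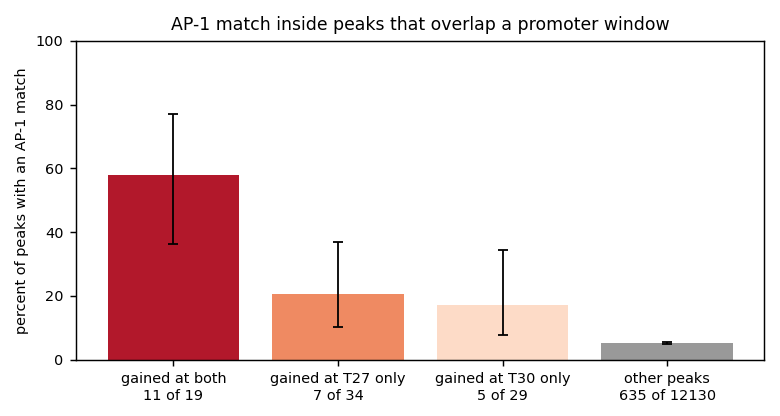
Percent of ATAC peaks with an AP-1 match (TGANTCA) inside the peak, among peaks that overlap a RefSeq promoter window, by how they met the selection thresholds. Bars give the share, lines the 95% Wilson interval, and the counts stand under each bar: 11 of 19 peaks gained at both times and 635 of 12130 other peaks hold a match.

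Few gained peaks lay close to gene starts. Only 47 (2.87%) were within 1 kb of a gene start or, where the strand of a gene was not given, of either end of the gene, against 15.4% of the 118796 peaks at or above the level cutoff. The median distance was 37.9 kb for gained peaks and 17.3 kb for all peaks at that level. At more than 100 kb from the nearest such start or end lay 24.5% of gained peaks, against 12.7%. Inside an annotated gene span lay 786 gained peaks (48.0%), against 64.6%. They were also more isolated from other peaks, with a median gap to the next peak of 5.99 kb, against 4.04 kb. Their median width was 530 bp, against 579 bp.

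The share of peaks that were gained rose with distance, in 0.257% of the peaks within 1 kb, 1.10% at 1 to 10 kb, 1.54% at 10 to 100 kb and 2.66% beyond 100 kb. Level also mattered to being chosen, with 1.63% of peaks gained at a mean log2 level of 1.5 to 2 and 0.204% at 4 and over. Within each of the 5 level classes the share was still lowest within 1 kb and highest beyond 100 kb: at a level of 2 to 2.5 it was 0.598% within 1 kb and 2.84% beyond 100 kb, and at 3 to 4 it was 0.226% and 1.92%. These are counts, with no test.

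**Figure D2:**
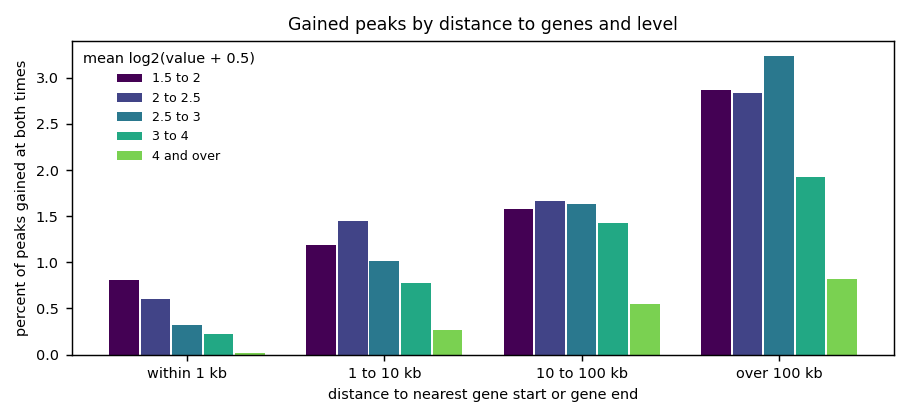
Percent of ATAC peaks gained at both times (y axis) by distance to the nearest gene start or end (x axis) and by mean log2(value + 0.5) level (colours). In every level class the share is lowest within 1 kb and highest beyond 100 kb.

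The gains that defined the group were moderate. T27 minus ZT3 had a median of 0.91 over the 1639 peaks and reached 2.55, and T30 minus ZT6 had a median of 0.93 and reached 2.06, on the log2(value + 0.5) scale. Since these differences chose the peaks, they are given as a description with no test. All T27, ZT3 and T30 mice were in batch 1, but ZT6 controls J76N1 and J76N2 were in batch 2. With ZT6 controls of batch 1 only, the rule gave 1726 peaks, of which 1496 were among the 1639. At the edge of the rule, the 3 peaks just inside had a smaller difference of 0.70 each (nearest genes Gm36667, Gm4925 and Gm32458), and the 3 just outside, nearest Gm41481, Megf9 and Svip, also had 0.70 after rounding.

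Ranked by the smaller of its T27 and T30 differences (1.78 and 1.91), the first gained peak was at chr17:75936448-75937368, an intergenic peak 75.9 kb from the predicted gene Gm4710. Its normalised read counts were 20.5, 25.2 and 25.5 in T27 mice and 6.09, 6.60 and 6.89 in ZT3 mice. At T30 they were 13.7, 22.1 and 24.4, against 3.69, 4.49, 4.99, 5.46 and 5.80 at ZT6. No deprived mouse overlapped a control at either time, but these values chose and ranked the peak. By T36 the counts were 8.35, 9.19 and 9.70, against 3.49 to 7.50 at ZT12, and 0.80 ± 0.24 higher on the log2 scale (SE; limma, adjusted p = 0.0903), which missed the threshold.

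The other 11 of the first 12 by this ranking lay 26.4 to 234 kb from the nearest gene start or end. They included peaks 47.8 kb from Gm31707 on chromosome 18 (2.55 at T27 and 1.68 at T30), 26.4 kb from the vomeronasal receptor gene Vmn2r1 (1.64 and 1.54), 59.5 kb from Tafa1, which encodes a secreted brain peptide (1.64 and 1.53), inside Cd109, a TGF-beta co-receptor gene, at 42.2 kb, and inside the carboxypeptidase gene Cpa6 at 191 kb. For Gm31707 the T27 counts were 13.1, 14.7 and 15.6, against 0.489, 3.00 and 4.31 at ZT3.

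The most accessible gained peaks had smaller gains. A peak at chr14:14632307-14633879, 85.7 kb upstream of the sodium bicarbonate cotransporter gene Slc4a7, was the widest gained peak (1573 bp). It held 38.3, 50.5 and 50.7 normalised reads at T27, against 21.9, 25.4 and 28.6 at ZT3. At T30 it held 41.8, 46.6 and 47.3, against 16.3 to 25.8 at ZT6, again with no overlap, in libraries that chose the peak. Others of the 8 with the highest level lay inside Tns3, a focal adhesion protein gene (0.80 at T27 and 0.84 at T30), inside Tcaf1, a regulator of TRP channels (0.95 and 0.91), and inside Iqgap2, a scaffold of the cytoskeleton (0.84 and 0.81).

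**Figure D3:**
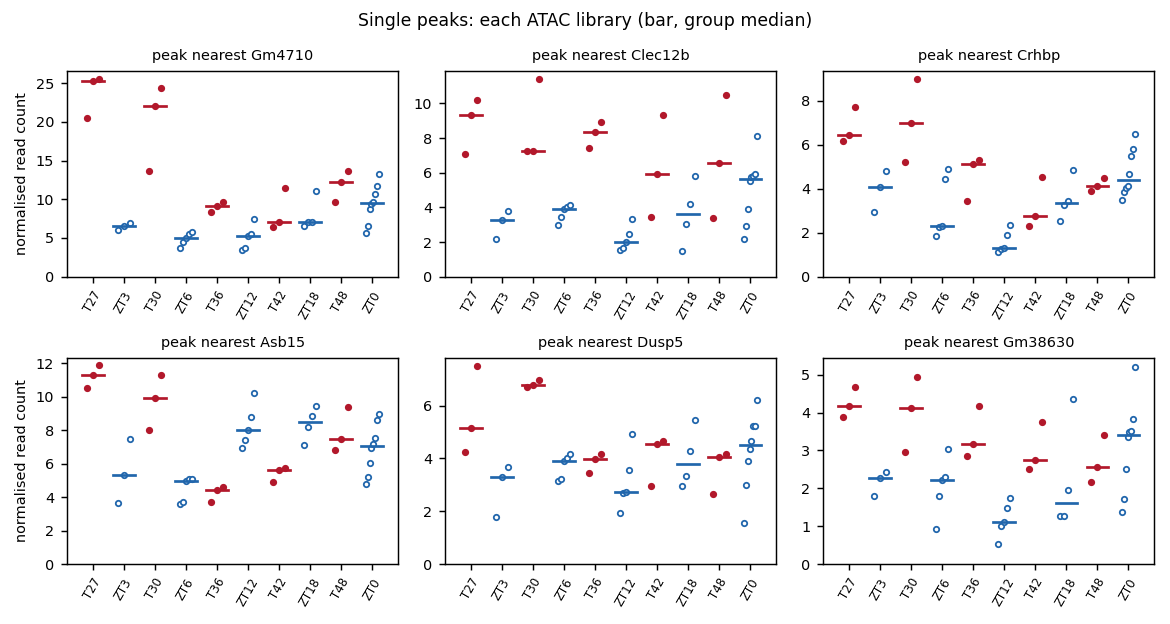
Normalised read counts (y axis) in each ATAC library for 6 gained peaks, named by the nearest gene, with each deprived group (filled red) left of the control of the same time of day (open blue); bars are group medians. At T36 the Clec12b, Crhbp and Gm38630 peaks are above all ZT12 controls and the Asb15 peak is below all of them.

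Accessibility of the gained peaks as a set was followed through recovery in libraries that the selection did not use for its differences. The mean log2 level over the 1639 peaks was 3.05 ± 0.11 at T27 (SD over mice) and 2.10 ± 0.06 at ZT3, and 3.00 ± 0.11 at T30 and 2.02 ± 0.14 at ZT6, the contrasts that chose them. At T36, 6 h after deprivation ended, the 3 mice stood at 2.39, 2.40 and 2.52, against 2.05 to 2.22 (median 2.10) in the 5 ZT12 controls. All 3 T36 mice lay above all 5 controls. At T42 the level was 2.44 ± 0.04, against 2.36 ± 0.16 at ZT18, and at T48 it was 2.58 ± 0.21, against 2.50 ± 0.15 at ZT0. Both groups overlapped their controls.

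The mean over all other peaks was 2.67 to 2.69 in every group, but values normalised per library hold that mean nearly constant, so a shift of all peaks could not be seen in them. Later groups stood at 2.07 ± 0.05 at T60 (ZT12 2.11 ± 0.07), 2.24 in the single T66 mouse (ZT18 2.36 ± 0.16), 2.43 ± 0.09 at T72 and 2.38 ± 0.23 at T192 (ZT0 2.50 ± 0.15). T54, T78 and T198 mice had 2.29 ± 0.07, 2.10 ± 0.07 and 2.14 ± 0.22, against 2.02 ± 0.14 in the ZT6 controls, and all 3 T54 mice (2.21 to 2.33) lay above all ZT6 mice (1.80 to 2.13). Those ZT6 controls helped to choose the peaks, so the median differences of 0.27, 0.08 and 0.15 from them carry no test. The group means have no batch term. All T60, T66, T192 and T198 mice were in batch 2, while the ZT0, ZT6, ZT12 and ZT18 controls came from both batches.

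**Figure D4:**
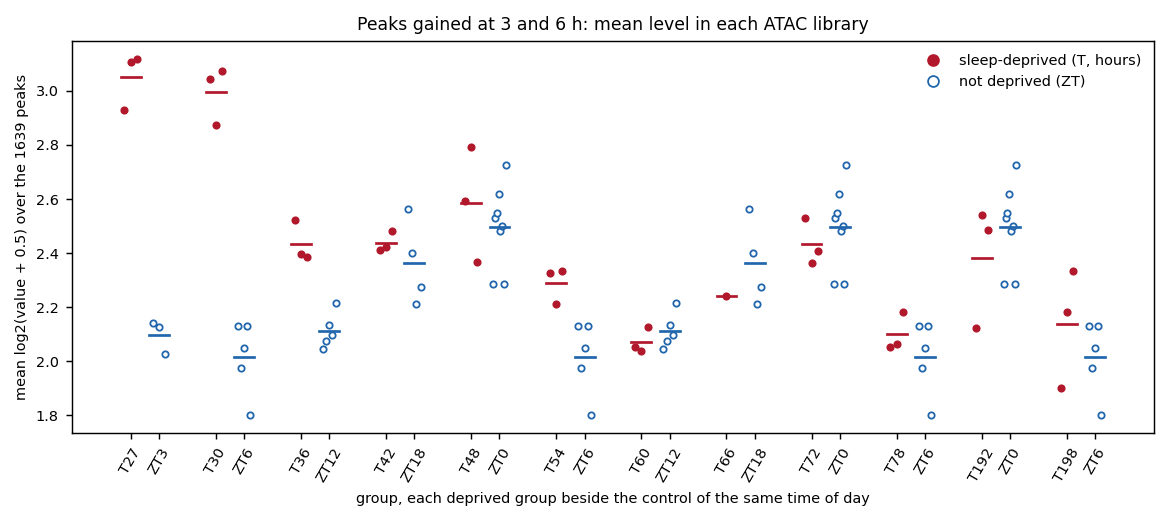
Mean log2(value + 0.5) over the 1639 gained peaks (y axis) in each ATAC library, with each deprived group (filled red, T in hours) left of the control group of the same time of day (open blue, ZT); bars are group means. T27 and T30, which chose the peaks, lie near 3, the 3 T36 mice lie above all 5 ZT12 controls, and from T42 on the mice overlap their controls at ZT18, ZT0 and ZT12.

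Tested one by one, 68 of the 1639 gained peaks (4.15%) were still higher at T36 than at ZT12 and 2 were lower, by limma over all 130727 peaks with Benjamini-Hochberg adjustment and calls at adjusted p below 0.05. Of all peaks, 0.261% were called higher and 0.357% lower. The difference was positive in 1325 gained peaks (80.8%), against 50.5% of all peaks, and its median was 0.32, against 0.00. Set against other peaks more than 10 kb from a gene start or end, the gained peaks at that distance stood at -0.02 on average in T36 mice and at -0.36 in ZT12 mice, both on the log2 scale. The number of calls depended on single libraries: 8 were called higher without T36 mouse T36S1, 16 without T36S2, 45 without T36S4, 17 without ZT12 mouse T12N1 and 33 without T12N4. Within batch 1, which holds all T36 mice, 56 were called higher and none lower, with 520 gained peaks at unadjusted p below 0.05. No share of all peaks is given for this batch. By edgeR on the recovered read counts 38 were called higher. The listed choroid plexus markers summed to 152 to 153 in T36 mice and 164 to 171 in ZT12 mice, with none called. This sum rests mostly on Enpp2 and cannot be read as choroid plexus content. Of 6 oligodendrocyte markers 1 fell at T36, with overlapping sums of 1741 to 1888 in T36 mice and 1858 to 2367 in ZT12 mice. Other sets were higher: oligodendrocyte precursor markers summed to 85.3 to 95.1 in T36 mice and 77.4 to 83.5 in ZT12 mice, with none called. Among inhibitory neuron, astrocyte and microglial markers, 1 of each set rose at T36. The part of these sets in the T36 difference was not tested.

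The peak with the largest difference at T36 was chr6:129380438-129380842 in Clec12b, a C-type lectin receptor gene. T36 mice had 7.41, 8.33 and 8.91 normalised reads, against 1.55, 1.68, 1.99, 2.49 and 3.36 in ZT12 mice. The groups did not overlap, and the difference was 1.72 ± 0.30 (log2, SE; limma, adjusted p = 0.00116). T27 mice had 7.06, 9.35 and 10.2 and T30 mice 7.24, 7.25 and 11.4, so the T36 counts lay within the range reached during deprivation.

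A peak at chr13:16738227-16738948, nearest to Gm31711 and 727 kb from Inhba, an activin subunit gene and the nearest gene in the RNA table, had 8.61, 9.41 and 10.0 reads at T36, against 2.73 to 3.74 at ZT12 (1.37 ± 0.25, limma, adjusted p = 0.0025). At chr1:35903867-35904538, near the gene 1110002O04Rik, T36 mice had 6.89, 8.63 and 10.3, against 2.76 to 3.88 (1.24 ± 0.22, limma, adjusted p = 0.00168). At chr1:113945573-113946131, near Gm32985, they had 5.42, 5.46 and 5.57, against 1.25 to 2.36 (1.38 ± 0.27, limma, adjusted p = 0.00493). None of these 3 peaks overlapped between groups, and with the Clec12b peak they kept their call under every alternative run for T36. The peak at the Gm38630 start, whose window holds an AP-1 match, had 2.85, 3.16 and 4.17, against 0.518 to 1.74 (1.36 ± 0.31, limma, adjusted p = 0.0184), and missed the threshold within batch 1.

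The 2 gained peaks that fell at T36 had lower mean levels than in undisturbed mice. At chr6:24539932-24540517 in Asb15, a SOCS-box gene, T36 mice had 3.71, 4.45 and 4.59 reads, against 6.91, 7.40, 7.98, 8.80 and 10.2 at ZT12 (-0.87 ± 0.22, limma, adjusted p = 0.0392). The same peak had 10.5, 11.3 and 11.9 at T27, against 3.67 to 7.49 at ZT3. At chr14:86750003-86750338, inside Diaph3 and 44.5 kb from Gm33025, T36 mice had 0.570, 0.861 and 2.78, against 2.02 to 5.95, and here the groups overlapped (-1.26 ± 0.33, limma, adjusted p = 0.0422). Neither call held within batch 1 or by edgeR. The count of peaks called lower was 0 without T36S2, T36S4, T12N1, T12N4 or T12N6 and 1 without T36S1 or T12N2.

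No gained peak was called at T42, T48, T60, T66, T72 or T192 by limma, nor by edgeR. At those 6 times 0.0% of all peaks were called, apart from 0.00153% at T48. At unadjusted p below 0.05 limma gave 86 gained peaks at T42, 85 at T48, 40 at T60, 16 at T66, 97 at T72 and 87 at T192, and edgeR gave 84, 124, 57, 74, 82 and 91 in that order of times. The limma counts are 5.25%, 5.19%, 2.44%, 0.976%, 5.92% and 5.31% of the gained peaks, against 4.23%, 5.43%, 2.14%, 1.35%, 4.90% and 3.24% of all peaks. The median difference was 0.07 at T42, 0.09 at T48, -0.03 at T60, -0.12 at T66, -0.07 at T72 and -0.10 at T192. The T36 difference less the T42 difference, a contrast added after the data were seen, had a median of 0.23. It passed the threshold for no gained peak and 0.0% of all peaks. By limma 234 gained peaks (14.3%, against 7.41% of all peaks) were at unadjusted p below 0.05. By edgeR 224 gained peaks were, and none was called either.

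Some of the gained peaks differed by time of day in mice that were never disturbed: over ZT0, ZT12 and ZT18 the F-test of limma called 176 of the 1639 (10.7%), against 1.31% of all peaks. The count was 85 without ZT12 mouse T12N1, 76 within batch 1 and 0 within batch 2, where 248 gained peaks were at unadjusted p below 0.05. Shares of all peaks are not given within batches. Over the control groups the mean level was 2.50 ± 0.15 at ZT0, 2.36 ± 0.16 at ZT18, 2.11 ± 0.07 at ZT12, 2.10 ± 0.06 at ZT3 and 2.02 ± 0.14 at ZT6 (SD over 8, 4, 5, 3 and 5 mice), and each neighbouring pair in that order overlapped. ZT3 and ZT6 controls had chosen the peaks by being low, so tests were confined to ZT0, ZT12 and ZT18. Between ZT0 and ZT12, 307 gained peaks (18.7%) were higher at ZT0 and 2 lower (limma), against 1.27% and 1.29% of all peaks. The difference was positive in 90.7% of gained peaks and 48.9% of all peaks, with medians of 0.38 and -0.01.

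Leaving out ZT12 mouse T12N1 reduced the 307 to 180. Within batch 1 the count was 146 with a median difference of 0.45. In batch 2, which holds 2 ZT12 mice, it was 0 with a median of 0.31. There 332 gained peaks were at unadjusted p below 0.05, with no share of all peaks given for either batch. Signal within 1 kb of a gene start or end was 29.7 to 33.7% in ZT0 libraries and 32.9 to 34.9% in ZT12 libraries. Relative to other peaks more than 10 kb from a gene start or end, the gained peaks at that distance averaged 0.02 at ZT0 and -0.36 at ZT12. The part of the near-gene signal in the ZT0 difference was not tested.

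ZT18 was between these times. 4 gained peaks (0.244%) were higher at ZT18 than at ZT12 and none lower, against 0.0138% of all peaks called higher, and 403 (24.6%) were at unadjusted p below 0.05 by limma, against 8.42% of all peaks. The count was 0 without ZT12 mouse T12N4 or ZT18 mouse T18N2 or T18N4, and 2 without T12N1, T12N2, T12N6 or T18N8. The median difference was 0.25. Between ZT0 and ZT18 no gained peak and 0.0% of all peaks passed the threshold by limma, and edgeR called none. At unadjusted p below 0.05 limma gave 152 gained peaks (9.27%, against 5.61% of all peaks) and edgeR gave 170. The T36 and ZT0 counts use the same ZT12 controls. Of the 68 gained peaks called higher at T36, 51 were also called higher at ZT0 than at ZT12. The shared controls make both calls dependent, and the same overlap is not given for all peaks. It therefore cannot be read as particular to the gained peaks.

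**Figure D5:**
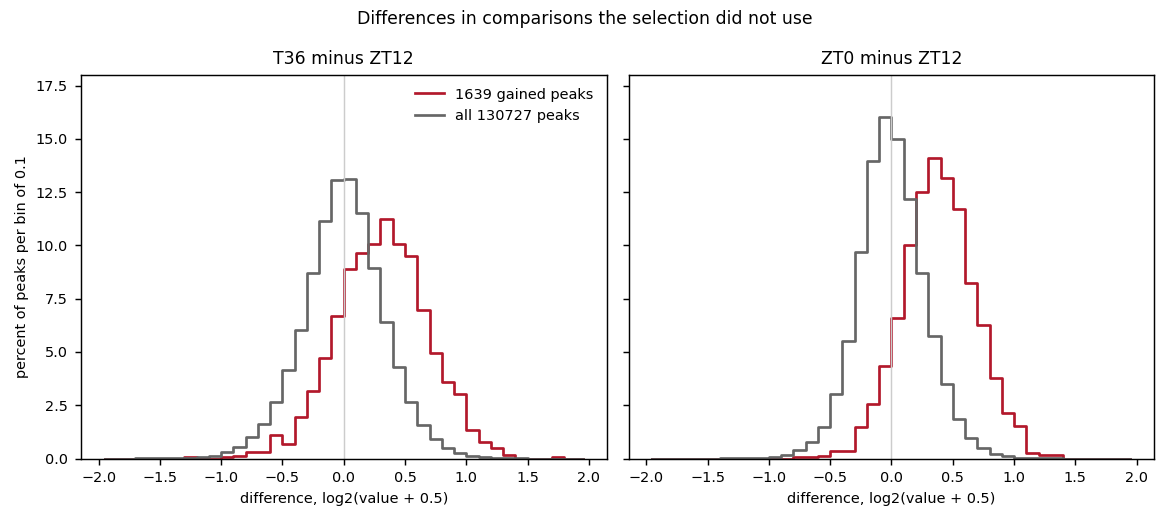
Distribution of the T36 minus ZT12 and the ZT0 minus ZT12 difference (x axis, log2(value + 0.5)) over the 1639 gained peaks (red) and all 130727 peaks (grey), as percent of peaks per bin (y axis). The gained peaks are centred on 0.32 and 0.38, all peaks near 0; both panels use the same ZT12 controls.

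The largest log2 difference between ZT0 and ZT12 among gained peaks was at chr13:95427565-95428019, 17.0 kb from Crhbp, which encodes the binding protein of corticotropin-releasing hormone. ZT0 mice had 3.49 to 6.48 reads (median 4.41, n = 8), and ZT12 mice had 1.11, 1.25, 1.29, 1.89 and 2.36. The groups did not overlap, and ZT0 was higher by 1.37 ± 0.20 (log2, SE; limma, adjusted p = 7.1e-06). The same peak had 3.45, 5.13 and 5.29 at T36, above all ZT12 mice (1.23 ± 0.26, limma, adjusted p = 0.0129).

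Near Prokr2, a prokineticin receptor gene, a peak at chr2:132340244-132340742 had 2.76 to 5.78 reads at ZT0 (median 4.02) and 0.337 to 2.21 at ZT12 (1.31 ± 0.23, limma, adjusted p = 0.000129). A peak at chr17:24986893-24987745, 26.7 kb from Jpt2, had 7.59 to 12.6 at ZT0 (median 9.36) and 2.69 to 4.20 at ZT12 (1.28 ± 0.17, limma, adjusted p = 9e-07). Neither overlapped between the times. Among the most accessible gained peaks, the one 94.7 kb from Slc25a26, a mitochondrial carrier gene, had 19.3 to 32.8 at ZT0 (median 26.6), 21.5 to 25.3 at ZT18 and 11.2 to 17.4 at ZT12. It was 1 of the 4 called at ZT18 (0.77, limma, adjusted p = 0.0193).

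Linked to genes by the nearest start within 100 kb, 1238 gained peaks (75.5%) belonged to 1164 genes, of which 412 were in the RNA table. In RNA, 42 of the 412 rose at T27 (10.2%, against 8.21% of all 13842 genes) and 30 fell (7.28%, against 7.37%). At T30, 79 rose (19.2%, against 16.0%) and 63 fell (15.3%, against 15.6%), and at T36, 37 rose (8.98%, against 7.46%) and 24 fell (5.83%, against 4.46%), by limma with adjusted p below 0.05. These shares were near those of all genes. The median RNA difference of the linked genes was -0.01 at T27, 0.0001 at T30 and 0.005 at T36. The count that fell at T27 was 18 without T27S5, 17 without T3N2 and 16 without T3N4, and that at T36 was 15 without T36S1.

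Gained peaks were counted for the listed genes. Of 169 peaks at the level cutoff linked to immediate early genes, 1 was gained (0.592%, against 1.38% of all peaks at that level). Of the 30 measured genes of the list, 27 rose in RNA at T30 and 0 fell. Over all genes 16.0% rose and 15.6% fell at T30. Feedback regulators of MAP kinases had 1 of 76 and clock genes 1 of 109. Of 14 measured MAP kinase regulators 11 rose at T30 and 0 fell, and of 22 clock genes 9 rose and 8 fell. Heat shock and ER chaperone genes had 0 of 83, which allows up to 3.61% on counting error, and 20 of their 28 genes rose at T30. Glucocorticoid-responsive genes had 0 of 74, which allows up to 4.05%, and 11 of their 14 measured genes rose at T30. Synaptic and neuropeptide genes had 7 of 232 (3.02%), and 16 of those 28 genes rose and 2 fell at T30.

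The immediate early peak lay in Homer1, which encodes a postsynaptic scaffold with a short activity-induced form. It had 3.27, 4.17 and 5.29 reads at T27 and 1.01, 2.69 and 3.90 at ZT3, which overlapped. At T30 it had 4.35, 4.85 and 5.36, against 1.34 to 2.25 at ZT6. The mean level of this peak over all libraries, 1.52, only just passed the cutoff of 1.5. That mean includes the T27 and T30 libraries, where the peak was high. Homer1 RNA was 8.15 ± 0.11 (log2) at T27, against 7.14 ± 0.18 at ZT3, and rose by 1.02 ± 0.16 (SE; limma, adjusted p = 1.53e-05).

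Dusp5, a nuclear phosphatase of ERK, had a gained peak 16.2 kb upstream with 4.23, 5.14 and 7.51 reads at T27, against 1.78, 3.30 and 3.67 at ZT3, and 6.70, 6.80 and 6.96 at T30, against 3.16 to 4.16 at ZT6. No deprived mouse overlapped a control, but these values chose the peak. Its RNA was 4.20 ± 0.36 at T27, against 2.89 ± 0.53 at ZT3 (1.30 ± 0.26, limma, adjusted p = 0.00035), and 4.15 ± 0.19 at T30, against 2.72 ± 0.35 at ZT6 (1.45 ± 0.24, limma, adjusted p = 5.85e-06). At T36 the RNA difference was -0.01 ± 0.24 (limma, adjusted p = 0.993).

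Nfil3, a repressor of D-box genes in the clock, had a gained peak inside the gene at 7.35 kb from its start, with 4.59, 5.84 and 7.95 reads at T27, against 1.71, 1.78 and 4.79 at ZT3. At T30 it had 4.61, 6.44 and 6.96, against 2.15 to 3.33 at ZT6. At T27 1 control lay above the lowest deprived mouse. Its RNA rose at all 3 times, by 0.59 ± 0.13 at T27, 0.93 ± 0.12 at T30 and 0.82 ± 0.12 at T36 (limma, adjusted p = 0.00104, 5.36e-08 and 2.63e-06).

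Scg2, the granin precursor of secretoneurin, had 3 gained peaks 7.46, 74.3 and 93.4 kb from its start on chromosome 1. The nearest had 5.14, 6.53 and 7.92 reads at T27, against 3.18, 3.60 and 3.8 at ZT3, and 6.09, 8.31 and 8.50 at T30, against 1.84 to 4.16 at ZT6. At T36 it had 2.85, 3.73 and 5.84, against 3.24 to 4.40 at ZT12, with full overlap (0.15 ± 0.26, limma, adjusted p = 0.87). Scg2 RNA rose by 0.41 ± 0.09 at T27, 0.71 ± 0.08 at T30 and 0.92 ± 0.08 at T36 (limma, adjusted p = 0.000846, 5.35e-09 and 1.7e-11). None of its 3 peaks was called at T36, where the other 2 differed by 0.42 ± 0.28 and 0.12 ± 0.25 (limma, adjusted p = 0.576 and 0.899).

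The cerebellins, secreted organisers of synapses, gave the other listed links. Cbln4 had 1 gained peak 33.0 kb away, and its RNA rose by 0.70 ± 0.15 at T27, 1.39 ± 0.14 at T30 and 0.97 ± 0.14 at T36 (limma, adjusted p = 0.001, 2.96e-10 and 2.69e-06). Cbln2 had 2, and its RNA rose by 0.44 ± 0.10, 0.70 ± 0.09 and 0.53 ± 0.09 at the same times (limma, adjusted p = 0.000959, 2.84e-08 and 2.37e-05). The gained peak in Dlgap1, a postsynaptic scaffold gene, had 6.09, 6.55 and 8.85 reads at T30, against 1.39 to 3.16 at ZT6. Dlgap1 RNA fell by 0.14 ± 0.04 at T30 (limma, adjusted p = 0.00146).

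Outside the lists, linked genes changed in both directions. Otub2, a deubiquitinase, rose by 0.88 ± 0.09 at T30 and Cdyl2, a chromodomain protein, by 0.80 ± 0.14 (limma, adjusted p = 6.49e-10 and 1.15e-05). The Wnt ligand Wnt2 and the Notch coactivator Maml3 rose by 0.78 ± 0.14 and 1.01 ± 0.12 at T30 (limma, adjusted p = 2.28e-05 and 4.96e-09). Abi3bp, an extracellular matrix protein, fell by 0.93 ± 0.12 at T30 and the leptin receptor Lepr fell by 0.61 ± 0.19 at T27 (limma, adjusted p = 6.73e-08 and 0.0218). Tafa1, spelled Fam19a1 in the RNA table, showed -0.03 ± 0.10 at T27 (limma, adjusted p = 0.867), rose by 0.36 ± 0.09 at T30 and by 0.86 ± 0.09 at T36 (adjusted p = 0.00184 and 1.9e-09). Its linked peak, among the first 12 by the smaller difference, showed a T36 difference of -0.14 ± 0.29 (limma, adjusted p = 0.894).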

How the data were processed

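ATAC-seq and RNA-seq were made from the cortex of the same mice, per the labels' protocols. The deposited ATAC signal is a normalised read count per peak and the deposited RNA values are on a log2 scale, both made by the authors. FastQC, Bowtie2, SAMtools, bedtools 2.26.0, MACS2 2.1.1, HTSeq 0.6.1, kallisto 0.43.0 and sleuth 0.29.0 and the builds GRCm38 and mm10 are named in the submitters' processing notes, with no role given there. All ATAC values came out as whole reads within 0.02 once divided by their step (100.0%), and edgeR 4.0.16 was run on these reads as an alternative.

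Differences were tested in R 4.3.3 with limma 3.58.1 on log2(value + 0.5), or on the deposited log2 RNA values, with one mean per group, a batch term as the labels give it, an intensity trend and Benjamini-Hochberg adjustment over all 130727 peaks or 13842 genes. The fits had 41 and 44 residual degrees of freedom. One repeat ATAC library of a ZT0 mouse was left out. The single T66 mouse was assumed to vary like the others. Fold changes understate those of low peaks because of the pseudocount.

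Gene starts came from the RefSeq promoter table for 27025 genes and both span ends were used for 7606 others. Of the RNA symbols 13364 matched. Motifs were read in promoter windows, because no genome sequence was used here, in place of the peak centres first planned. The sample labels place T36 within the deprivation, while the series design ends it at T30, and the design was followed. The peaks and gene lists were chosen with earlier results of these data known. Peaks named are the 12 with the largest value of the smaller of both gains, the 8 highest levels, up to 8 called each way at T36, those linked to listed genes and up to 6 by time of day, and genes are those with the largest called RNA changes. Alternatives left out each replicate and changed the pseudocount, batch, replicate block, tool and link.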

Additional observations from a re-analysis of the deposited data

Results flagged for a closer look

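In 35 groups of 4 to 10 mice, a library was looked for whose gap to its nearest neighbour was a large part of the group's range on the log2 scale, which chance gives in about 1 of 20 groups. The Scg2 peak 7.46 kb from its start had 1 ZT6 mouse at 1.84 normalised reads with the others at 3.59 to 4.16, a ratio of 0.81. The Prokr2 peak had 1 ZT12 mouse at 0.337 with the others at 1.47 to 2.21, a ratio of 0.728. The Gm46605 peak had 1 ZT0 mouse at 3.42 with the others at 5.13 to 6.75, a ratio of 0.59.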

How the results depend on the processing

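Of 667 values recomputed for 40 results, 564 kept their direction and side of the threshold or stayed near the reported value, 94 lost the call or fell in count, 8 gained, 1 moved and none reversed, and the causes were not tested. Replicate numbers did not pair mice (median correlation of same-numbered mice -0.00289 over 177 ATAC pairs and -0.00121 over 179 RNA pairs). With the replicate block the gained peaks called were 57 higher and 0 lower at T36, 124 higher at ZT0, 11 at ZT18 and 63 by time of day, and no other count moved by over 1.5 times. Within batch 1, 0 were lower at T36, 146 higher at ZT0 and 76 differed by time of day, and 10 linked genes fell in RNA at T36. Within batch 2, an alternative added after the data were seen, 0 were called at ZT0, 0 at ZT18 and 0 by time of day, and the ZT18 median was 0.11. edgeR called 38 higher and 0 lower at T36, and a pseudocount of 2 left 1 lower at T36 and 586 gained peaks.

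Leaving out 1 mouse at a time gave 8 to 66 peaks higher and 0 to 2 lower at T36, 180 to 351 at ZT0, 0 to 6 at ZT18, 85 to 202 by time of day, 0 to 1 between ZT0 and ZT18, 0 at T42, T48, T60, T66, T72 and T192, and 1504 to 1904 gained peaks. Medians were 0.28 to 0.34 at T36, 0.35 to 0.42 at ZT0 and 0.19 to 0.30 at ZT18. Linked genes higher in RNA numbered 33 to 37 at T27, 58 to 77 at T30 and 26 to 35 at T36, and those lower 16 to 28, 48 to 66 and 15 to 22. Linking within 10 kb gave 12, 21 and 10 higher and 9, 15 and 6 lower, and linking to the nearest measured gene, added after the data were seen, 80, 134 and 69 higher and 58, 110 and 38 lower.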

Other observations

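Of the 1639 gained peaks, 262 (16.0%) had another within 100 kb and 14 runs held 3 or more, given as counts with no baseline. Runs of 4 lay at chr10:88728336-88893095, near Gm4925, Slc5a8 and Utp20, and at chr13:108315000-108480869, near Depdc1b and Gm27572. The 5 genes with 3 linked gained peaks were Elmo1 and Dock10, which act in Rac and Cdc42 signalling, Scg2, the ubiquitin ligase gene Marchf1, and Depdc1b. In RNA, Elmo1 rose by 0.17 ± 0.05 at T30 and by 0.20 ± 0.05 at T36 (limma, adjusted p = 0.00805 and 0.00582). Marchf1, spelled March1 in the RNA table, fell by 0.21 ± 0.06 at T36 (limma, adjusted p = 0.0163). Dock10 differed by 0.08 ± 0.08 at T27, 0.03 ± 0.08 at T30 and -0.07 ± 0.08 at T36, with no call (limma, adjusted p = 0.584, 0.822 and 0.602). By chromosome, the share of peaks at the level cutoff that were gained was lowest on chromosome 7, with 32 of 5537 (0.578%), and highest on chromosome 18, with 89 of 4538 (1.96%).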
